A study of Rattus norvegicus with 18 samples.

Results

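Gene expression in the amygdala of handled rats was compared with that in the hippocampus of handled rats, which describes how these regions of the brain differed in animals that had not been stressed. The arrays were chosen by their titles alone, 3 labelled as control amygdala and 3 labelled as control hippocampus, so that 6 of the 18 rat arrays of the series entered the comparison. Each array read total RNA from 1 region. The remaining 12 arrays held the same regions after chronic immobilization stress (3 and 3) and the cortex of handled and stressed rats (3 and 3). The 3 stress amygdala and 3 stress hippocampus arrays served as a second measurement of the same regional difference on other arrays, and the handled cortex arrays are quoted for comparison. The labels give no strain, sex, age or genotype, no schedule for handling or stress, no account of how the regions were dissected, and no word on whether the replicate arrays stand for different animals, pooled animals or repeats of 1 RNA. Each p-value below is thus set by array-to-array spread, part or all of which could be technical. One label field named the amygdala for every array, hippocampus and cortex included, so marker transcripts of the regions were compared with the titles.

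The hippocampus is built from a few dense layers of principal neurons. Granule cells of the dentate gyrus project to pyramidal cells of CA3, and these in turn to pyramidal cells of CA1, and the circuit is known for its part in memory of places and events. The amygdala is a group of nuclei of mixed developmental origin. Its basolateral nuclei resemble cortex, with excitatory principal neurons and scattered interneurons, whereas the central and medial nuclei resemble striatum and hold mostly inhibitory projection neurons that release peptides, and the whole is known for its part in fear, reward and social behaviour. A dissected amygdala therefore samples both cortex-like and striatum-like neurons.

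Arrays of a group resembled each other. Median intensities of the 6 arrays ran from 49.6 to 54.2 with a highest value of 20582, and within a group each array had a mean rank correlation (Spearman) with its replicates between 0.974 and 0.975 in amygdala and between 0.965 and 0.969 in hippocampus. The number of arrays, 3 per group, limits the precision of every value. Control probe sets at both ends of a transcript measure RNA integrity. For beta-actin the log2 difference of the 3′ over the 5′ probe set was 2.07 ± 0.08 in handled amygdala and 1.54 ± 0.23 in handled hippocampus (SD, n = 3 throughout), and the arrays did not overlap. For GAPDH the values were 0.45 ± 0.04 and 0.26 ± 0.10, and for hexokinase 0.83 ± 0.08 and 1.02 ± 0.11, the opposite direction. The arrays did not overlap for these controls either. The part of these differences in the results below was not tested.

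After dim probe sets were left out, 18625 probe sets naming 10256 genes were tested. At an adjusted p under 0.05, 5289 probe sets (28.4%) differed between handled amygdala and handled hippocampus, 2895 higher and 2394 lower in amygdala. When each gene was represented by its brightest probe set, 3045 genes (29.7%) differed, of which 1614 (15.7%) were higher in amygdala and 1431 (14.0%) lower. Most differences were small: the median absolute log2 difference over all genes was 0.197 and the 90th percentile 0.626. At least 2-fold on the log2(intensity + 16) scale were 209 genes higher in amygdala (2.04%) and 161 lower (1.57%). The 3 amygdala and 3 hippocampus intensities did not overlap for 40.5% of all genes. Counts of called members in the gene lists below stand beside the 15.7% higher and 14.0% lower over all genes. The lists were not tested against these shares. In tissue RNA, fewer cells of a type and less RNA per cell cannot be told apart, and this holds for every gene below.

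**Figure D1:**
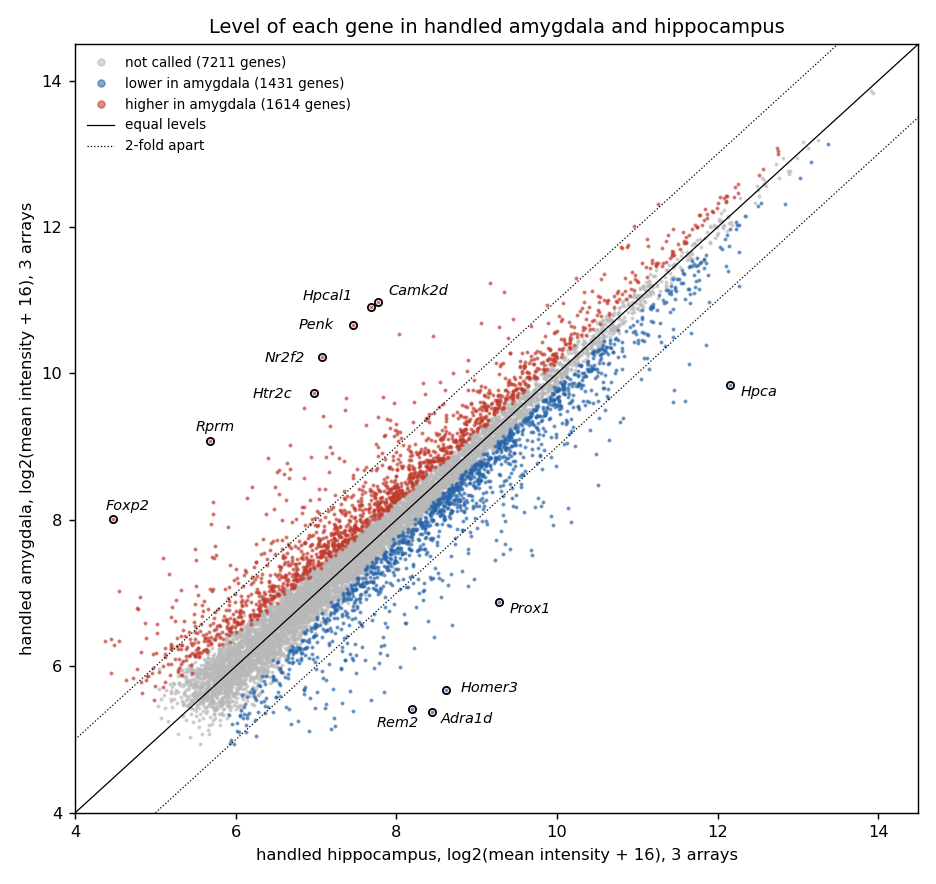
Each point is 1 gene, placed by the log2 of its mean intensity plus 16 in handled hippocampus (x axis) and handled amygdala (y axis), 3 arrays each; red and blue points are the 1614 genes called higher and the 1431 called lower in amygdala, and dotted lines mark a 2-fold difference. Most genes lie near the line of equal levels, and the circled genes, among them Penk and Foxp2 above it and Hpca and Prox1 below it, lie beyond the dotted lines.

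Transcripts known from hippocampal fields followed the titles in most but not all cases. Of 35 genes on this list 27 were tested, of which 14 were lower in amygdala, 4 were higher and 9 did not pass, with a median log2 difference of -0.43 beside 0.0144 over all genes. Prox1, the transcription factor that specifies dentate granule cells, read 101, 95.1 and 109 on the amygdala arrays and 617, 588 and 606 on the hippocampus arrays. Every hippocampus array was higher than any amygdala array, and the difference was -2.40 ± 0.09 (log2 ± SE, adjusted p = 2.2e-15). Neurod1, a basic helix-loop-helix factor kept on in granule cells, read 81.03, 63.6 and 60.8 against 319.5, 348 and 349, a difference of -2.08 ± 0.13. Marker genes of pyramidal fields went the same way. Pou3f1, a POU factor of CA1, differed by -2.15 ± 0.14, Fibcd1, another CA1 marker, by -1.66 ± 0.28, and Grik4, the kainate receptor subunit concentrated in CA3, by -2.04 ± 0.20. Bok, a Bcl-2 family gene used as a CA3 marker, read 211, 202 and 175 in amygdala and 601, 573 and 599 in hippocampus. Nrip3, a nuclear receptor interacting protein, was among the most precisely measured, with 744, 819.8 and 749 against 3175, 2929 and 3105 and a difference of -1.97 ± 0.06. Zbtb20, a zinc finger repressor needed for CA1 identity, differed by -1.12 ± 0.13, and the regional patterning factor Lhx2 by -0.63 ± 0.07. The exceptions were C1ql3, a secreted synaptic organiser, at 1.06 ± 0.08, Ociad2 at 0.92 ± 0.09, the calcium buffer calbindin (Calb1) at 0.87 ± 0.06 and Wfs1, an endoplasmic reticulum protein used to mark CA1, at 0.69 ± 0.10, all higher in amygdala. Pcp4, a calmodulin-binding peptide of CA2 and the dentate gyrus, read 1602, 1581 and 1582 against 1696, 1569 and 1668, and the groups overlapped.

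Genes known from amygdalar nuclei, most of them transcription factors, were more often higher than lower in amygdala. Of 38 listed genes 21 were tested, with 11 higher, 3 lower, 7 not called and a median of 0.66. Foxp2, a forkhead factor of intercalated and medial amygdala neurons, read 219.6, 233 and 274 in amygdala against 15.9, 1.59 and 0.834 in hippocampus, a log2 difference of 3.60 ± 0.21 (adjusted p = 4.7e-12), the largest with an offset of 16. The hippocampal readings were near the floor of the arrays, so this difference depended on the offset and was 5.81 with an offset of 1 and 2.13 with 64, where 8 of the 15 genes of largest difference in this direction exceeded it. Nr2f2 (COUP-TFII), an orphan nuclear receptor that patterns the caudal forebrain, read 1204, 1149 and 1188 against 103, 125 and 129.8, and the level in amygdala was 9.90 times that in hippocampus. The TALE homeobox genes, cofactors of Hox proteins that are also active in striatal and amygdalar precursors, were higher as well. Pbx3 read 684, 676 and 650.0 against 106, 136 and 118, Meis1 differed by 2.01 ± 0.19 and Meis2 by 1.87 ± 0.11. Etv1, an ETS factor of projection neurons, differed by 1.65 ± 0.08, the LIM-only gene Lmo3 by 0.87 ± 0.07, and Tshz1, a zinc finger factor of intercalated cells, by 0.66 ± 0.10. Prkcd, the protein kinase C isoform that marks a class of inhibitory neurons in the lateral central nucleus, read 148, 116 and 139 against 69.4, 76.2 and 80.1, a difference of 0.72 ± 0.13. The 3 listed genes lower in amygdala were Lhx9, a LIM homeobox gene, at -2.06 ± 0.17, Zeb2 at -0.61 ± 0.09 and Tcf4 at -0.38 ± 0.06. Lhx9 was on the list for its role in the developing amygdala, and here it read 17.96, 24.6 and 18.4 in amygdala and 129.7, 133 and 143 in hippocampus. 9 further members, among them Isl1, Sim1, Otp and the aromatase gene Cyp19a1, were too dim on the 18 arrays to be tested.

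Among all genes, the 15 with the largest differences in the direction of amygdala ran from 2.36 ± 0.16 for Fxyd6 to Foxp2. Rprm, a cell cycle inhibitor also used as a marker of deep cortical layers, read 527, 501 and 538 against 21.02, 35.4 and 48.8, a difference of 3.43 ± 0.14. Htr2c, the serotonin 2C receptor, read 802, 838 and 877 against 114, 99.2 and 117, a difference of 2.76 ± 0.09. Cyp26b1, an enzyme that breaks down retinoic acid, read 1398, 1436 and 1601 in amygdala and 240.0, 244 and 255 in hippocampus, a ratio of 5.997. Dpp10, an auxiliary subunit of Kv4 potassium channels, differed by 2.44 ± 0.11, and Fxyd6, a regulator of the sodium pump, read 513, 513 and 491 against 72.7, 104 and 81.4. Tpd52l1, a tumour protein D52 family gene, differed by 2.70 ± 0.12. Krt71, a keratin gene, Trim54, a tripartite motif gene, and Tmem91, a transmembrane protein gene, made up the list with 2.52 ± 0.28, 2.49 ± 0.23 and 2.49 ± 0.29. These were dim in hippocampus, where Trim54 read 3.07, 10.9 and 8.01 and Krt71 15.6, 37.5 and 1.63, and their size also moved with the offset, Trim54 from 3.92 with an offset of 1 to 1.32 with 64 and Krt71 from 3.77 to 1.48. In 6 of the 15 genes the hippocampal mean was below 50. The same held for other genes dim in 1 region, and 33 of the 210 called genes named here moved by over 1.5 times with an offset of 64, 6 with an offset of 1.

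The 15 genes at the other end ran from -2.06 ± 0.17 for Lhx9 to -3.08 ± 0.13 for Adra1d, the alpha-1D adrenergic receptor, which read 34.6, 22.4 and 19.5 in amygdala and 356, 295 and 348 in hippocampus. Homer3, a scaffold that ties group 1 metabotropic glutamate receptors to their effectors, read 48.8, 34.5 and 22.2 against 400.4, 352 and 380.1, a difference of -2.97 ± 0.17. Rem2, a small GTPase that restrains voltage-gated calcium channels, read 19.1, 18.9 and 41.7 against 304, 277 and 253, a difference of -2.83 ± 0.19. For these genes the amygdala readings were the dim side, and with an offset of 64 the differences were -2.15 for Adra1d, -2.16 for Homer3 and -1.92 for Rem2. In 8 of the 15 genes the amygdala mean was below 50. Lpl, lipoprotein lipase, read 182, 163 and 186 against 820.3, 781 and 802, and Rnf182, a ubiquitin ligase, 175, 163 and 166 against 785, 794 and 845. Cpne4, a calcium-dependent phospholipid-binding copine, read 238, 225 and 245 against 1110.3, 1129 and 1189.6, a difference of -2.20 ± 0.09. Mas1, the receptor for angiotensin-(1-7), differed by -2.13 ± 0.12, the synaptic cadherin Clstn2 (calsyntenin 2) by -2.08 ± 0.17, the sterol hydroxylase Cyp27a1 by -2.08 ± 0.21 (with an offset of 64 -1.32 for Clstn2 and -1.22 for Cyp27a1) and Strip2 by -2.25 ± 0.20. All 30 genes had non-overlapping arrays, as the naming rule required.

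The handled cortex arrays placed these genes against another region, given as values without a test because the rule had already used both other groups. Of the 15 genes high in amygdala, 12 had a cortical level nearer, on the log2 scale, to amygdala than to hippocampus. Rprm read 525 ± 34.4 in cortex (mean ± SD), Camk2d 1247 ± 77.2, Dpp10 556 ± 5.96 and Fxyd6 842 ± 8.34, so that the last pair were higher in cortex than in amygdala. The 3 nearer to hippocampus were Penk at 389 ± 1.70, Nr2f2 at 202 ± 10.6 and Cyp26b1 at 554 ± 43.1. Of the 15 genes high in hippocampus, 13 had a cortical level nearer to amygdala, for example Prox1 at 75.7 ± 5.71, Hpca at 959 ± 11.9 and Mas1 at 69.1 ± 2.85. Pou3f1 at 163 ± 20.4 and Adra1d at 194 ± 5.39 were nearer to hippocampus.

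**Figure D2:**
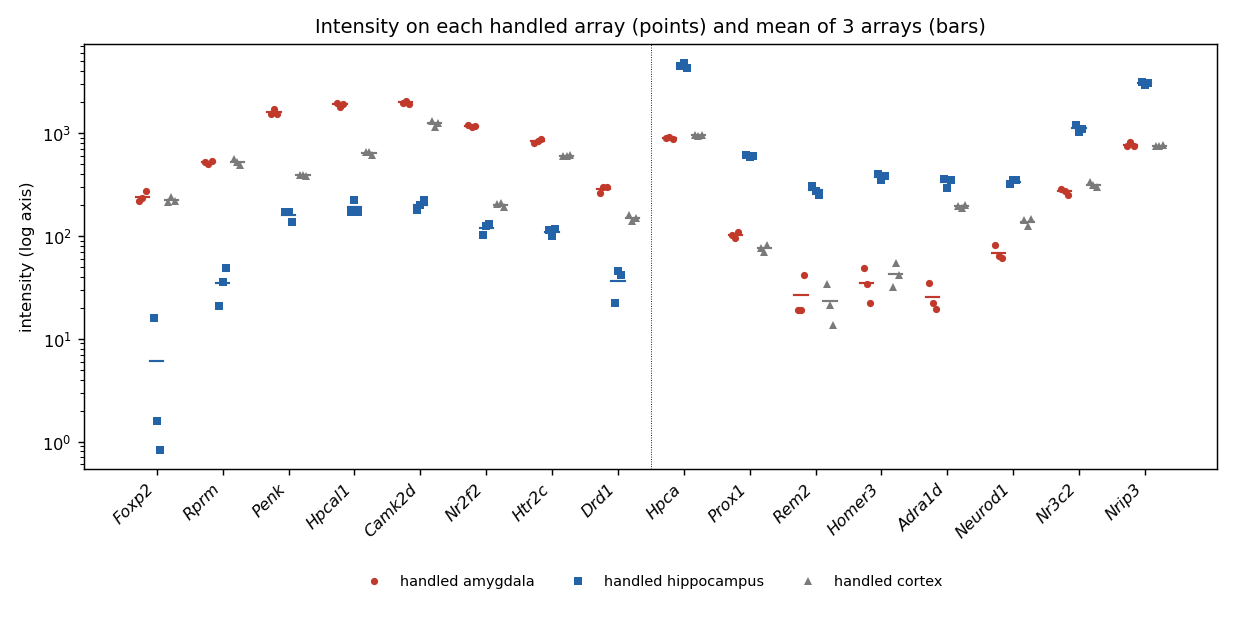
Intensity (log axis) of 16 genes on each handled array, 3 of amygdala (red circles), 3 of hippocampus (blue squares) and 3 of cortex (grey triangles), with bars at the means; levels of different genes are not comparable with each other. Left of the dotted line the red points lie above the blue ones for every gene, right of it below. Penk, Hpcal1, Camk2d, Nr2f2, Htr2c and Drd1 stand higher in amygdala than in cortex as well, while Foxp2 and Rprm overlap with cortex.

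Calcium signalling genes separated the regions by family member, and 2 families, the Hpcal1 and CaM kinase II genes, are shown here with the 250 bases before the start of the gene for 1 member high in each region, to set the upstream sequence of close relatives side by side. The sequences are from RefSeq on the GRCr8 assembly, since the array values carry no coordinates, at chr6:46206644-46206893 (plus strand) for Hpcal1, chr5:146748359-146748608 (minus strand) for Hpca, chr2:217698301-217698550 (plus strand) for Camk2d and chr14:85147945-85148194 (minus strand) for Camk2b. Capitals mark GC boxes (GGGCGG, the site of Sp1 family factors) and CCAAT boxes (CCAAT) on either strand.
Hpcal1: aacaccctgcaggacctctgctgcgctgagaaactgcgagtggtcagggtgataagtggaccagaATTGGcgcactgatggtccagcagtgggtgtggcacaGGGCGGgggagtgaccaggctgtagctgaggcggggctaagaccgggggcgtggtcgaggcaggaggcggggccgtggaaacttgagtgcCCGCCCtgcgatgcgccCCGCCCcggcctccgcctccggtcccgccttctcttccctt
Hpca: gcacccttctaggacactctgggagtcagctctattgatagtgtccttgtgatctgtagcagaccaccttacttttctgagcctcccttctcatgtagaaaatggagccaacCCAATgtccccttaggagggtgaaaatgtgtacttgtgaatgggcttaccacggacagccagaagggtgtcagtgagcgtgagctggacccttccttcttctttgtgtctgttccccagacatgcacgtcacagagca
Camk2d: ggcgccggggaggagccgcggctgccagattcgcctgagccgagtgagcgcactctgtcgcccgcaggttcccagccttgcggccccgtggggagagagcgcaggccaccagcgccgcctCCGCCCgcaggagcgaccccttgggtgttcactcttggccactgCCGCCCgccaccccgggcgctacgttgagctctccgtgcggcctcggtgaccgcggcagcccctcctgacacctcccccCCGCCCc
Camk2b: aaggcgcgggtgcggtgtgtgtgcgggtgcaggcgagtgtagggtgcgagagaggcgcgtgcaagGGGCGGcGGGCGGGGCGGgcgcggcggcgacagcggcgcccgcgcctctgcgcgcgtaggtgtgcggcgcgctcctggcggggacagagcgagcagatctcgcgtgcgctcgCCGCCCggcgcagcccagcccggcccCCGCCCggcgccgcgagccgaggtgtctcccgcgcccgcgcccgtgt
The Hpcal1 stretch held 3 GC boxes and a CCAAT box with 67.2% G and C, while the Hpca stretch held a CCAAT box and no GC box with 50.8%. Both kinase stretches were rich in G and C (75.2% for Camk2d and 80.4% for Camk2b) and held 3 and 5 GC boxes. A GC box lay in 32.4% and a CCAAT box in 34.3% of the 27457 promoters of the table. Among the 30 genes with the largest differences 12 of 15 and 11 of 15 had an entry, and a GC box lay in 5 of 12 higher and 3 of 11 lower genes, a CCAAT box in 3 of 12 and 5 of 11. These matches describe letters in this window only.

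Of 19 tested calcium sensor and buffer genes 8 were higher and 5 lower in amygdala. Hpcal1 and Hpca encode closely related neuronal calcium sensors that bind membranes through a myristoyl group when calcium rises. Hpcal1 read 1981, 1797 and 1944 in amygdala and 173, 225 and 173 in hippocampus, and all amygdala arrays were higher, by 3.23 ± 0.10 (adjusted p = 3.2e-17). Hpca (hippocalcin) went the other way, with 909, 915 and 875 against 4504, 4796 and 4338 and a difference of -2.32 ± 0.07 (adjusted p = 3.0e-17). Hpcal4, a further relative, was higher by 0.55 ± 0.06. Ncs1 and Vsnl1 had probe sets called both ways, so no direction is given for them. Of the buffers, calretinin (Calb2) read 372, 450.1 and 319 against 82.7, 82.2 and 79.5, a difference of 2.01 ± 0.17, and parvalbumin (Pvalb) was lower at -0.53 ± 0.11. Among the Kv channel interacting proteins, which tune A-type potassium current, Kcnip1 was higher at 0.66 ± 0.10 and Kcnip2 lower at -0.88 ± 0.08.

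The calmodulin kinases and phosphatases showed 5 of 19 genes higher and 7 lower. Camk2d, the delta subunit of calcium/calmodulin-dependent kinase II, read 1987, 2056 and 1943 against 178, 202 and 226, a level 9.89 times higher in amygdala and the smallest adjusted p of the named genes (2.4e-18). Camk2b, the actin-binding beta subunit, read 1940.0, 2040.3 and 1994 against 3903, 3755 and 3652, lower at -0.92 ± 0.06. The alpha subunit Camk2a did not pass at -0.27 ± 0.11 (adjusted p = 0.065), nor did Camk2g at 0.22 ± 0.11. Camk2n1, an inhibitor of the kinase, was higher at 0.78 ± 0.15, and Camkk1, which activates CaM kinases 1 and 4, was lower with 559, 582 and 539 against 1216, 998 and 1133. The calcineurin genes Ppp3ca and Ppp3r1, catalytic and regulatory, were lower at -0.52 ± 0.06 and -0.53 ± 0.07, and neurogranin (Nrgn), which holds calmodulin at the membrane, at -0.46 ± 0.06.

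Neuropeptide genes were higher in amygdala in 10 of 24 tested cases and lower in 6. Penk, the precursor of the enkephalins, read 1525, 1719 and 1548 in amygdala and 171, 172 and 136 in hippocampus, a ratio of 9.99 and a log2 difference of 3.20 ± 0.09 (adjusted p = 3.0e-17). Somatostatin (Sst) read 975, 925 and 884 against 309.6, 372 and 393, Vip differed by 1.38 ± 0.10, cholecystokinin (Cck) by 0.78 ± 0.08 and Npy by 0.45 ± 0.08. Gastrin-releasing peptide (Grp), which is made by principal neurons of the lateral amygdala, read 262, 257 and 269 against 97.1, 99.6 and 141. Cartpt, the CART precursor, differed by 1.33 ± 0.21 and the secreted granule protein Vgf by 0.88 ± 0.13. The precursor of the dynorphins behaved otherwise, since Pdyn read 113, 94.8 and 81.6 against 206, 328 and 331, lower in amygdala at -1.41 ± 0.16. Nmb (neuromedin B) was lower at -1.59 ± 0.20, neurotensin (Nts) at -1.02 ± 0.19, the nociceptin precursor Pnoc at -0.82 ± 0.19, and the granins Chgb and Scg2 at -0.87 ± 0.06 and -0.53 ± 0.07. Crh, the corticotropin-releasing hormone known from the central nucleus, was dim, with 52.05, 35.8 and 33.5 against 29.4, 31.3 and 34.96, and did not pass (adjusted p = 0.42). Tac1, the substance P precursor, read 36.2, 32.5 and 14.6 against 35.4, 8.58 and 5.96 with overlapping groups. Pomc, Trh, Avp and Oxt fell below the filter.

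Peptide receptors were higher in 10 of 20 tested cases and lower in 3 (65% called, beside 29.7% over all genes). Trhr, the receptor for thyrotropin-releasing hormone, read 325, 352 and 320.4 against 61.6, 47.7 and 62.7, a difference of 2.25 ± 0.12, and in cortex 74.5 ± 2.999. Tacr3, the neurokinin B receptor, differed by 1.94 ± 0.22, and the somatostatin receptors split, with Sstr1 at 1.42 ± 0.11 higher and Sstr3, a receptor of neuronal cilia, at -0.59 ± 0.14 lower. Of the neuropeptide Y receptors, Npy1r was higher at 0.60 ± 0.09 and Npy5r lower at -0.67 ± 0.17. The nociceptin receptor Oprl1 was higher at 0.96 ± 0.15, opposite in sign to its ligand gene Pnoc. Hcrtr2, an orexin receptor, was lower at -0.95 ± 0.20. The opioid receptor genes Oprm1 and Oprd1, the oxytocin receptor Oxtr and the vasopressin receptor Avpr1a were below the filter. So was Oprk1, the kappa opioid receptor, whose mean over all 18 arrays was low, but it read 76.7, 99.9 and 57.5 in amygdala against 4.68, 2.90 and 6.64 in hippocampus, with no overlap and no test.

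Genes known from striatal projection neurons were higher in amygdala in 12 of 20 tested cases, lower in 2, with a median log2 difference of 0.73. Drd1, the dopamine D1 receptor, read 263, 302 and 297 against 22.3, 45.7 and 41.9, a difference of 2.56 ± 0.14, and Adora2a, the adenosine receptor of the indirect pathway, 80.4, 115 and 85.6 against 13.1, 4.06 and 17.2. Drd2 was called at 0.94 ± 0.31, but not without handled hippocampus 1 (0.50, adjusted p = 0.19) or without any 1 of the 3 handled amygdala arrays (0.054 to 0.060). Rxrg, a retinoid X receptor, differed by 1.96 ± 0.12 and Arpp21, a cAMP-regulated phosphoprotein, by 2.06 ± 0.07, with 1527 ± 66.4 in cortex. Ppp1r1b (DARPP-32), the phosphatase inhibitor downstream of dopamine, read 379, 442 and 419 against 225, 217 and 190.0, and adenylyl cyclase 5 (Adcy5) differed by 0.84 ± 0.12. Pde10a at 0.10 ± 0.09 and Gnal at 0.28 ± 0.14, a phosphodiesterase and a G protein alpha subunit both abundant in striatum, did not pass, although a second probe set of Gnal was called higher at 0.52 ± 0.16 (adjusted p = 0.018). The exceptions in the other direction were Pdyn and Scn4b, a sodium channel beta subunit, at -1.35 ± 0.12. The brightest probe set of Rasd2 did not pass at 0.17 ± 0.08, but another was called lower at -0.59 ± 0.15 (adjusted p = 0.0059). The mean log2 level of the list over the tested members lay between 7.79 and 7.93 on the amygdala arrays and between 7.02 and 7.12 on the hippocampus arrays. Whether the dissected tissue held neighbouring striatum was not tested.

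Genes of inhibitory transmission were higher in 6 of 15 tested cases and lower in 1 (46.7% called, beside 29.7% over all genes). The vesicular GABA transporter Slc32a1 read 242, 262 and 256 against 156, 161 and 128, a difference of 0.72 ± 0.11, and the GABA-synthesising enzymes differed by 0.74 ± 0.05 for Gad1 and 0.75 ± 0.18 for Gad2. Among receptor subunits, Gabra3 was higher with 112, 82.1 and 63.04 against 18.9, 22.03 and 20.4. Gabra5, the alpha subunit of extrasynaptic receptors that is typical of hippocampal pyramidal cells, was lower with 668, 589 and 639.5 against 1488, 1757 and 1981, a difference of -1.43 ± 0.09. Gabrb2 at 0.63 ± 0.07 was higher, while Gabra2, Gabrb1 and Gabra4 did not pass. The brightest probe set of Gabrd did not pass either, and another was called lower at -0.42 ± 0.12 (adjusted p = 0.011). Of 17 tested interneuron genes 9 were higher and 3 lower, the latter being Pvalb, the cannabinoid receptor Cnr1 at -0.27 ± 0.06 and reelin (Reln) at -0.77 ± 0.07. Calb2, Sst, Vip, Cck and Npy, which mark other interneuron classes, were on the higher side.

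Ionotropic glutamate receptor genes split, 5 of 19 higher and 7 lower. Grin3a, an NMDA receptor subunit that lowers calcium entry, read 214, 209.9 and 265 in amygdala and 30.03, 32.8 and 44.7 in hippocampus, a difference of 2.25 ± 0.17, with 79.97 ± 9.20 in cortex. Grin2a was lower with 967, 1071 and 1079 against 1712, 1729.8 and 1633, although another of its probe sets had the opposite sign, and Grin2b at 0.02 ± 0.17 did not pass. By their brightest probe sets the AMPA receptor subunits differed less. Gria1 was called at 0.47 ± 0.12, but not without handled amygdala 3 (0.32, adjusted p = 0.064), and without that array 3 genes of the list were called higher in place of 5. Gria3 at 0.36 ± 0.10 was not called without handled amygdala 3 (adjusted p = 0.10) or handled hippocampus 3 (0.086). Another probe set of Gria3 was called higher at 0.87 ± 0.11 (adjusted p = 2.8e-06). Gria2 at -0.16 ± 0.05 kept its call only when handled hippocampus 1 was the array left out (adjusted p 0.051 to 0.096 otherwise). Of the kainate receptor genes, Grik1, Grik2 and Grik5 did not pass and Grik3 was below the filter. Grik4 read 55.1, 46.1 and 42.4 against 303, 228 and 216, and Neto1, an auxiliary subunit of kainate receptors, 57.5, 24.5 and 49.9 against 136, 213 and 144. Neto2, its relative, was higher at 0.45 ± 0.11. The AMPA receptor auxiliary genes Cnih2 and Cacng2 were lower at -0.87 ± 0.08 and -0.60 ± 0.13.

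Of 19 metabotropic receptor and scaffold genes 8 were higher and 1, Homer3, was lower (2 without handled hippocampus 1 or 2), each counted by its brightest probe set. By that probe set Dlg3, Dlgap1 and Grm8 did not pass. Other probe sets were called lower for Dlg3 (-0.49 ± 0.14 and -0.70 ± 0.18) and Dlgap1 (-0.23 ± 0.08 and -0.36 ± 0.14). Another of Grm8 was called higher at 1.58 ± 0.20. Dlg1 (SAP97), a scaffold of the postsynaptic density, read 705, 739.6 and 750.2 against 319, 357 and 381, a difference of 1.02 ± 0.07, while its relative Dlg4 (PSD-95) at -0.18 ± 0.08 did not pass. Shank1 and Shank2 were higher at 0.51 ± 0.07 and 0.45 ± 0.08 and Shank3 at -0.20 ± 0.10 did not pass. The receptor gene Grm3 was higher at 0.46 ± 0.10, and Grm5 did not pass at 0.40 ± 0.17.

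Receptors for monoamines and acetylcholine were higher in 8 of 20 tested cases and lower in 5 (6 and 6 when arrays were centred on their medians, and 5 higher without handled amygdala 2). The serotonin receptors took opposite sides, with Htr2c higher and Htr1a, the inhibitory receptor of hippocampal pyramidal cells, lower at 19.2, 22.6 and 27.7 against 138, 125 and 137, a difference of -1.94 ± 0.15. Htr4 was lower at -0.71 ± 0.18. The adrenergic receptors did the same. Adra2a, which couples to inhibitory G proteins, read 173, 162 and 151 against 35.2, 39.5 and 36.04, a difference of 1.75 ± 0.14, whereas Adra1d, which couples to phospholipase C, was lower in amygdala at -3.08 ± 0.13. Of the acetylcholine receptors Chrna4 was higher at 1.49 ± 0.28 and the muscarinic Chrm3 lower at -1.06 ± 0.11. The histamine H3 receptor Hrh3 read 523, 268 and 367 against 124, 142 and 114, higher in amygdala despite a wide spread between its arrays. 18 further genes of the list, Chrm1 and Chrm2 among them, were below the filter. One of these, the serotonin receptor Htr5b, read 12.1, 20.6 and 30.3 in amygdala against 126.9, 74.6 and 78.97 in hippocampus, without overlap and untested.

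Second messenger enzymes were divided, 7 of 22 protein kinase C and phospholipase genes being higher and 8 lower. Prkcd and Plcb4 were higher, Plcb4 at 0.63 ± 0.13. Prkca, a conventional protein kinase C, was lower at -1.09 ± 0.16, the inositol trisphosphate receptor Itpr1 at -0.76 ± 0.06 and the diacylglycerol kinases Dgkz and Dgkg at -0.97 ± 0.07 and -0.77 ± 0.06. Of 26 regulators of G protein signalling and small GTPase genes 9 were higher and 9 lower. Rgs4, which shortens signals through Gi and Gq proteins, read 785, 853 and 749 against 147, 143 and 161, a difference of 2.29 ± 0.08, with 1245 ± 44.6 in cortex. Rgs12 at 1.37 ± 0.17 and Rgs17 at 1.18 ± 0.08 were higher and Rgs10 at -0.80 ± 0.07 lower. Rerg, a small GTPase of the Ras family, read 154, 153 and 168 against 629.7, 546 and 582, and Rasd1, a dexamethasone-induced Ras protein, was lower at -1.30 ± 0.12.

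Potassium channel genes were more often lower than higher in amygdala, 11 against 6 of 30 tested (56.7% called, beside 29.7% over all genes). Kcna1, a delayed rectifier subunit of axons, read 138, 131 and 119 against 397, 329 and 368, a difference of -1.39 ± 0.10. Its beta subunit Kcnab2 differed by -1.18 ± 0.07. Kcnj6 (GIRK2), opened by Gi-coupled receptors, read 311, 299 and 286 against 703, 674 and 659, and the silent subunit Kcng2 141, 142 and 134 against 393, 336 and 320.0. Kcnd2, the main A-type channel of pyramidal dendrites, was lower at -0.73 ± 0.09 and its relative Kcnd3 higher at 0.65 ± 0.10. The sodium-activated channel Kcnt1 and the background channel Kcnk2 (TREK-1) were higher at 1.19 ± 0.15 and 1.07 ± 0.15. Sodium, calcium and HCN channel genes were lower in 10 of 27 cases and higher in 3 (48.1% called). Scn3b, a sodium channel beta subunit, read 1130.2, 1083 and 1096 against 3137, 3086 and 3314, a difference of -1.51 ± 0.05, while the alpha subunit gene Scn3a was higher at 0.97 ± 0.10. Cacna2d3, an auxiliary calcium channel subunit, differed by -1.24 ± 0.08, the ryanodine receptor Ryr2 by -1.13 ± 0.06 and Trpc6 by -1.32 ± 0.14.

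Nuclear receptor and retinoid genes were higher in 13 of 27 tested cases and lower in 3. The corticosteroid receptors differed from each other. Nr3c2, the mineralocorticoid receptor, read 286, 276 and 252 in amygdala and 1211, 1019.6 and 1109.7 in hippocampus, a difference of -1.97 ± 0.08. Nr3c1, the glucocorticoid receptor, read 371, 361 and 334 against 379.8, 356 and 436, with overlapping groups and a difference of -0.13 ± 0.09 (adjusted p = 0.33). On the retinoid side, the degrading enzyme Cyp26b1 and the receptor Rxrg were higher and the synthesising dehydrogenase Aldh1a1 lower with 78.5, 84.3 and 79.5 against 256, 247 and 276. The thyroid hormone receptor Thrb read 772, 795 and 719 against 273, 292 and 281, a difference of 1.38 ± 0.08. Nr4a3, an orphan receptor induced by activity, was lower at -0.95 ± 0.09, whereas its relative Nr4a2 did not pass at 0.11 ± 0.14. The oestrogen receptors Esr1 and Esr2 were below the filter.

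Guidance and adhesion genes were called in 29 of 48 tested cases, 14 higher and 15 lower. Receptors and ligands of the semaphorin and Eph systems, which repel or attract growing axons, were lower in 9 of 19 tested cases and higher in 4, a count over these genes of the list that was made after their values were seen. Epha4 read 844, 845 and 899.7 against 2673, 2815 and 2886, a difference of -1.68 ± 0.06, Epha7 differed by -1.72 ± 0.14 and Epha6 by -0.82 ± 0.14. Nrp1, the co-receptor of class 3 semaphorins, read 185, 192 and 160.2 against 585, 737 and 669, and Nrp2 differed by -1.21 ± 0.13. The ligands Sema3c, Sema3e and Sema5a were lower at -1.79 ± 0.10, -1.46 ± 0.10 and -1.26 ± 0.08. Another probe set of Sema5a did not pass at -0.45 ± 0.21. Sema3a was below the filter and went the other way, with 22.1, 30.1 and 18.2 in amygdala against 0.394, 1.94 and 4.30, without overlap and untested. Sema4a at 0.79 ± 0.10, the ephrin ligands Efnb3 and Efna5 at 0.73 ± 0.08 and 0.72 ± 0.18, and the plexin Plxnd1 at 1.01 ± 0.19 were higher. Contactins, immunoglobulin adhesion proteins of axons, split, with Cntn3, Cntn4 and Cntn6 higher at 1.43 ± 0.13, 1.15 ± 0.18 and 1.63 ± 0.23 and Cntn1 lower at -0.58 ± 0.17, a call lost without handled hippocampus 3 (-0.52, adjusted p = 0.060). Of the IgLON adhesion genes, Negr1 read 1682, 1701 and 1738 against 649, 695 and 703 and Ntm differed by 0.48 ± 0.09, and Opcml was lower at -0.42 ± 0.08. The cadherin Cdh13 was higher at 1.22 ± 0.12 and Cdh11 lower at -0.92 ± 0.08.

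**Figure D3:**
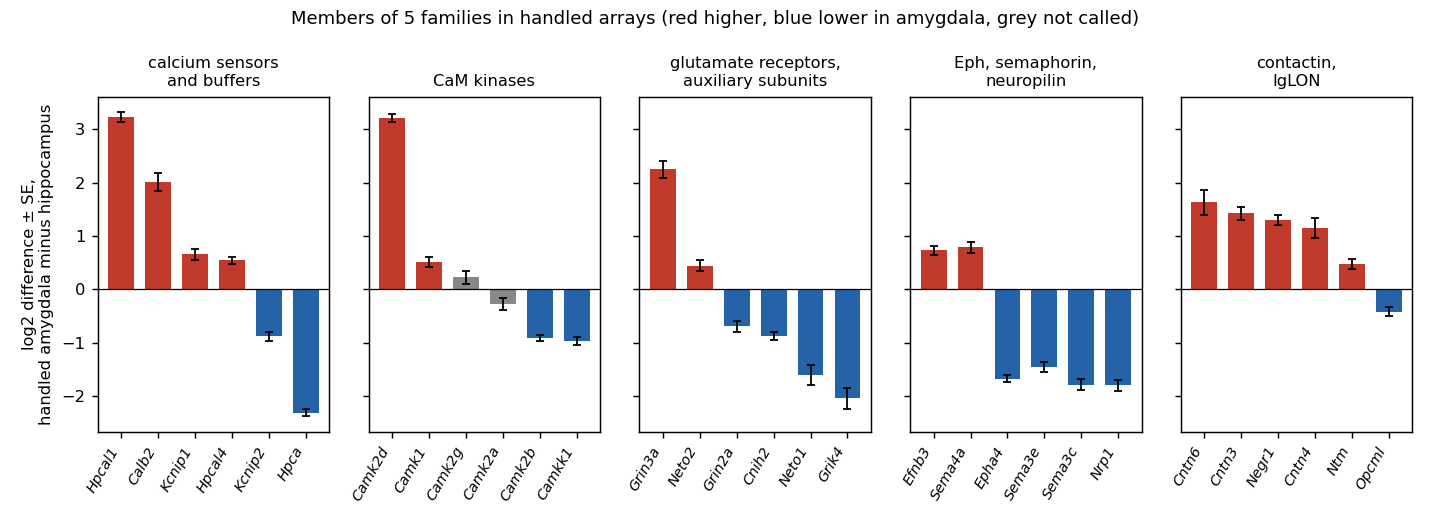
Bars give the log2 difference of handled amygdala minus handled hippocampus and lines the SE, for 6 members each of 5 gene families (red called higher, blue called lower, grey not called). The members were picked by hand with earlier results of these data known, so that each family as drawn has members on both sides of 0 is no result about the families. The widest gap drawn is that of Hpcal1 against Hpca, and Camk2d and Grin3a stand far above the relatives drawn.

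Among growth factors and their receptors 6 of 27 were higher and 8 lower (51.9% called, beside 29.7% over all genes). Bdnf, the brain-derived neurotrophic factor, read 219.7, 210.5 and 222 in amygdala and 464, 427 and 412 in hippocampus, lower at -0.95 ± 0.11, while its receptor Ntrk2 was higher at 0.68 ± 0.06. Ntf3 (neurotrophin 3), a factor of granule cells, read 61.8, 39.9 and 39.9 against 176, 229.8 and 182, a difference of -1.75 ± 0.15, and its receptor Ntrk3 did not pass at 0.01 ± 0.22. Fgfr1 read 247, 307 and 276 against 888, 918 and 826, a difference of -1.61 ± 0.09, whereas Fgfr3, an astrocytic receptor of the same family, was higher at 0.66 ± 0.11. Bmp3 was higher at 1.32 ± 0.17. Of 19 immediate early genes, which neurons induce within minutes of activity, 7 were higher and 3 lower. Over all genes 15.7% were higher and 14.0% lower. Egr2 read 118, 102 and 91.5 against 11.3, 27.1 and 27.8, Egr1 differed by 0.64 ± 0.08 and Fos by 0.66 ± 0.18. Arc at -0.24 ± 0.14 did not pass, and the phosphatases Dusp5 and Dusp6 were lower at -1.15 ± 0.23 and -0.67 ± 0.13.

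Vesicle release genes were higher in 9 of 27 cases and lower in 6 (55.6% called, beside 29.7% over all genes). The vesicular glutamate transporters took opposite sides, with Slc17a7 (VGLUT1) lower at 1397, 1482 and 1279.6 against 2194, 2197 and 1969 and Slc17a6 (VGLUT2) higher at 133, 122 and 108 against 48.9, 99.4 and 59.9. Vamp1 was lower at -1.05 ± 0.07 and Syt1, the calcium sensor of fast release, at -0.79 ± 0.18. The complexins Cplx1 and Cplx2 were lower at -0.40 ± 0.05 and -0.47 ± 0.12 and Cplx3 higher at 1.04 ± 0.20. Stx1a, a syntaxin, and Unc13c, a priming factor, were higher at 0.94 ± 0.12 and 1.04 ± 0.16, while Snap25 at -0.14 ± 0.06 did not pass. Of 12 tested genes of immature neurons 5 were higher and 3 lower. Dcx, a marker of newborn neurons, read 101, 84.05 and 80.8 against 94.3, 54.1 and 54.9 and did not pass (adjusted p = 0.14), Sox11 was higher at 1.11 ± 0.25, and Eomes, Mki67 and Top2a were below the filter.

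Genes used to mark neocortical layers were higher in amygdala in 9 of 19 tested cases and lower in 6. Mef2c, a transcription factor of excitatory neurons, read 2218, 2134 and 2236 against 637, 633 and 621, a difference of 1.77 ± 0.06, with 3615 ± 202 in cortex. Cux2, a marker of upper layers, differed by 2.14 ± 0.19, Ccn2 (CTGF), a marker of the deepest layer, by 2.17 ± 0.11, Tshz2 by 2.15 ± 0.14 and Nxph3 by 2.04 ± 0.16. Those lower included Neurod6, a factor of pyramidal neurons, with 771, 812 and 719.6 against 2834, 2771 and 2699, and Neurod2 at -0.83 ± 0.15. The thalamus and hypothalamus list had 7 tested genes with 2 called (28.6%, near the 29.7% over all genes), of which Slc17a6 was higher (2 genes without handled hippocampus 3) and Prox1 lower, and the genes Avp, Oxt, Pomc and Nkx2-1 were below the filter.

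Of 18 oligodendrocyte genes 14 were lower in amygdala and 2 higher, with a median of -0.45. Myelin transcripts made up the lower ones, for example Mog with 479.6, 461 and 406 against 673, 759 and 806, Mag at -0.76 ± 0.10, Ugt8 at -0.77 ± 0.14 and Mbp at -0.27 ± 0.07. The call of Mbp, by its brightest probe set, was lost without handled hippocampus 1 (-0.17, adjusted p = 0.077). Another probe set of Mbp was called lower at -0.62 ± 0.11 (adjusted p = 7.4e-05), and a further one did not pass at -0.23 ± 0.09. The 2 higher ones, Pdgfra at 0.52 ± 0.08 and Cspg4 at 0.82 ± 0.19, mark oligodendrocyte precursors. The mean log2 level of the oligodendrocyte list lay between 9.06 and 9.10 on the amygdala arrays and between 9.40 and 9.46 on the hippocampus arrays, and its part in the neuronal differences was not tested. Of 9 microglial genes 8 were higher and none lower, with a median of 0.62. Ctss, a lysosomal protease, read 2189, 2177 and 2268 against 1275, 1403 and 1429.6, P2ry12, the purine receptor of resting microglia, differed by 0.64 ± 0.09, and the complement genes C1qa and C1qb by 0.62 ± 0.09 and 0.49 ± 0.12. Trem2, a lipid receptor of microglia, was below the filter, with 47.1, 34.7 and 53.2 against 5.07, 8.81 and 3.18. Itgam, also below it, went the other way without overlap, with 8.72, 7.09 and 13.8 against 16.3, 21.5 and 16.5. Cd68, below it as well, had overlapping groups, and none of these was tested. The mean level of this list lay between 7.86 and 7.92 in amygdala and between 7.25 and 7.35 in hippocampus. Astrocyte genes were higher in 6 of 14 cases, by at most 0.66 ± 0.11 (Fgfr3), and lower in 1, the intermediate filament gene Gfap, which read 1509.9, 1554 and 1387 against 3236, 3177 and 3283, a difference of -1.12 ± 0.06. Aqp4 and Slc1a2 did not pass at 0.07 ± 0.07 and -0.14 ± 0.16.

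Of 13 vascular genes 3 were called (23.1%, beside 29.7% over all genes), all higher, Slco1c1 at 0.44 ± 0.07 and Tek at 0.55 ± 0.12 among them, and Cldn5 did not pass at 0.29 ± 0.11. Of 8 choroid plexus and ependymal genes 3 were lower, 1 was higher and 4 did not pass. Ttr, transthyretin, which choroid plexus makes in large amount, read 558, 495 and 482 in amygdala and 1038, 1128 and 1138 in hippocampus, a difference of -1.08 ± 0.14, and Calml4 differed by -1.67 ± 0.23. Kl, Kcnj13 and Otx2, defining genes of that tissue, were below the filter. Of 12 meningeal genes 4 were called (33.3%, near the 29.7% over all genes), all lower (1 was higher without handled amygdala 3), with Ptgds (prostaglandin D synthase) at 683, 734 and 709 against 1624, 1446 and 1536, and the collagen genes Col1a1 and Col3a1 at -0.08 ± 0.23 and -0.42 ± 0.16 did not pass. A second, dim probe set of Col1a1 was called lower at -0.88 ± 0.30 (adjusted p = 0.030). The haemoglobin gene Hbb read 2031, 2258 and 2104 against 1989, 1968 and 2163, with overlapping groups.

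**Figure D4:**
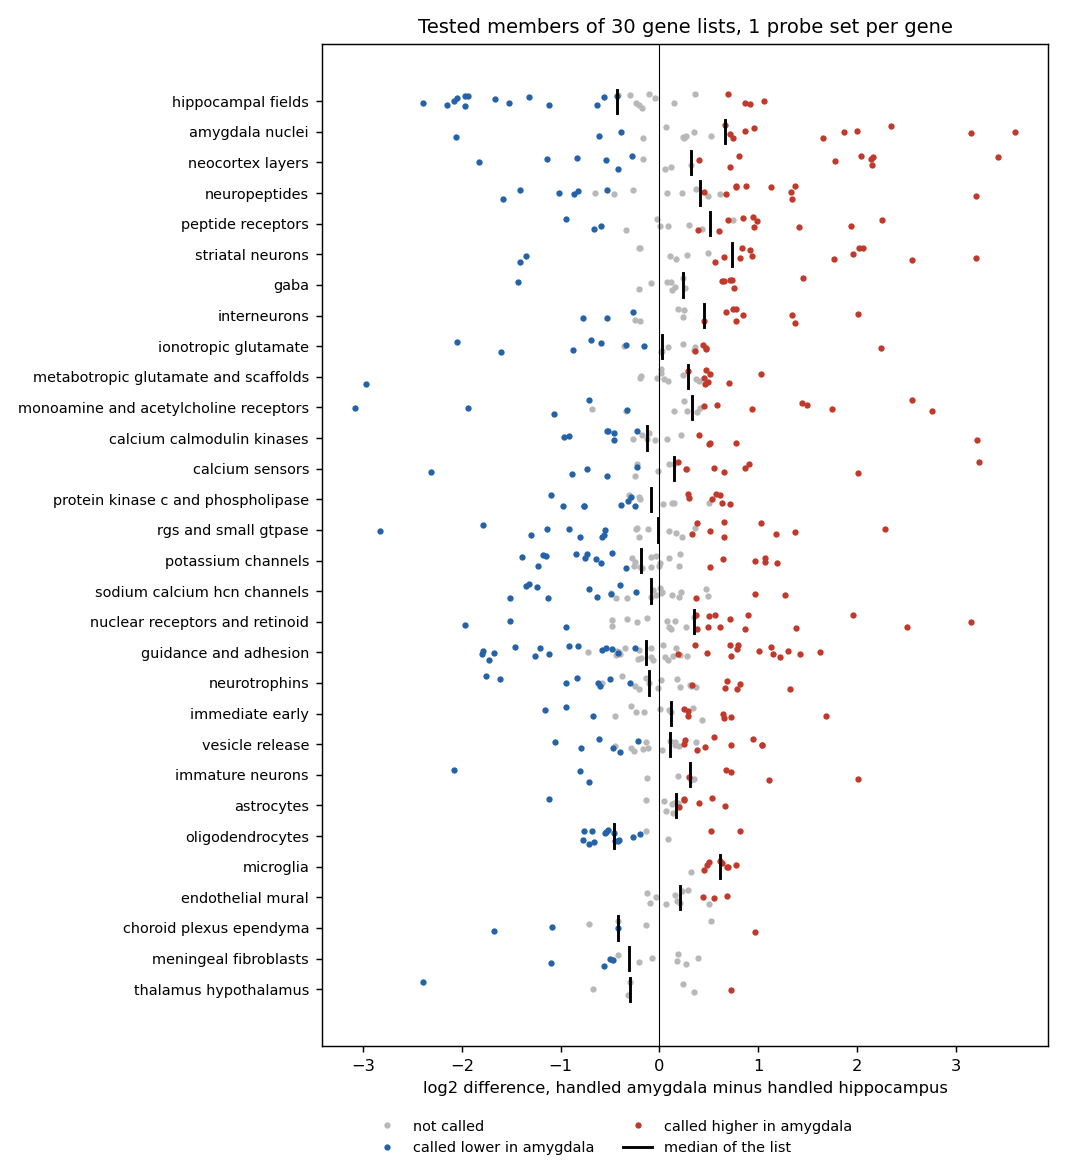
Each point is a tested member of 1 of 30 gene lists (rows), placed by its log2 difference of handled amygdala minus handled hippocampus, red if called higher, blue if called lower and grey if not called; black bars are list medians and vertical scatter within a row has no meaning. The oligodendrocyte and hippocampal field lists have their medians left of 0 and the striatal, microglial and amygdala lists right of 0, and most neuronal lists hold members far out on both sides.

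Genes with several probe sets gave a check within the arrays. Of 994 called genes with more than 1 tested probe set, 209 had a probe set of the opposite sign. Probe sets called both ways were found in 20 genes, Ncs1, Vsnl1 and Kcnq3 among them, counted whether or not the brightest was called. Where a gene named here had a second probe set that differed in sign or size, its value stands for the brightest probe set unless another is stated. Probe sets of the same sign could differ widely in size. Arpp21 had others at 0.25 ± 0.06 and 2.04 ± 0.08, Htr2c another at 0.64 ± 0.18 and Sstr1 another at 0.19 ± 0.33, which did not pass. Hpcal4 had a larger one at 1.24 ± 0.13.

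The same regional difference was then measured on the stress arrays, which share no array with the handled comparison, only the estimate of the spread. There the arrays of the regions did not overlap for 39.1% of genes, and 2991 genes (29.2%) were called, 1676 higher and 1315 lower in amygdala. At the level of probe sets 2798 were higher and 2371 lower, a split that turned to 1820 against 3649 when arrays were centred on their medians. Of the 3045 genes called in handled arrays 2086 (68.5%) were called the same way in stress arrays, which is 69.7% of the stress calls, and 2921 (95.9%) had the same sign. One gene, Smarcb1, a chromatin remodelling subunit chosen after its values were seen, was called in opposite directions (-0.35 ± 0.08 and 0.23 ± 0.08). Of the 370 genes at least 2-fold apart 345 (93.2%) were called the same way. All 30 genes of largest difference were called the same way, for example Foxp2 at 3.52 ± 0.21, Penk at 3.47 ± 0.09, Hpca at -2.08 ± 0.07 and Prox1 at -2.46 ± 0.09. Stress differences of these genes were between 2.06 and 3.60 in size for those higher in amygdala and between 1.16 (Pou3f1) and 2.90 for those lower. None of the 30 passed the interaction test below. Pou3f1 came nearest, with a gap of -2.15 in handled and -1.16 in stress arrays, a change of 0.98 ± 0.20 (adjusted p = 0.062).

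The difference between the handled and the stress regional gap was tested as an interaction in the same fit, and 9 of 18625 probe sets (0.0483%) and 5 of 10256 genes (0.0488%) passed. The number of probe sets was 3 without handled amygdala 3, handled hippocampus 2 or stress hippocampus 3, 4 without handled hippocampus 1 or stress hippocampus 1, 5 without handled hippocampus 3 and 18 without stress hippocampus 2. Growth hormone (Gh1), a hormone best known from the pituitary, read 103, 99.1 and 73.6 and 141, 106 and 118 in handled amygdala and hippocampus, where it was not called at -0.36 ± 0.17 (adjusted p = 0.12). In stress arrays it read 196, 230.2 and 202 in amygdala and 40.6, 53.97 and 51.98 in hippocampus, a gap of 1.80 ± 0.17. Wfs1 was higher in amygdala in both sets, at 0.69 ± 0.10 and 1.69 ± 0.10, and Scn4b lower in both, at -1.35 ± 0.12 and -0.43 ± 0.12. The gap of Ttr was -1.08 ± 0.14 in handled and -2.26 ± 0.14 in stress arrays, and that of Lsamp, an IgLON adhesion gene, 0.80 ± 0.10 and 0.04 ± 0.10. The changes of Gh1 and Wfs1 passed whichever array was left out. Those of Lsamp, Scn4b and Ttr did not pass without any 1 of the 3 handled hippocampus arrays, stress hippocampus 1 or 3, or handled amygdala 2 or 3, nor did Lsamp without stress amygdala 1, Scn4b without handled amygdala 1 or stress amygdala 2 or 3, and Ttr without handled amygdala 1. With 1 array left out their adjusted p reached 0.12, 0.14 and 0.080. Ttr is 1 of 8 tested choroid plexus and ependymal genes. The mean log2 level of the other 7 lay between 6.67 and 6.77 on the stress hippocampus arrays against 6.41 to 6.64 on the handled ones, and between 6.06 and 6.24 against 6.07 to 6.41 in amygdala. Their part in the Ttr result was not tested. Scn4b is 1 of 20 tested striatal genes. The mean log2 level of that list, Scn4b included, lay between 8.16 and 8.28 on the stress amygdala arrays. On the handled amygdala arrays it lay between 7.79 and 7.93. The hippocampus arrays gave 7.05 to 7.21 with stress and 7.02 to 7.12 with handling. The part of the striatal list in the Scn4b result was not tested.

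**Figure D5:**
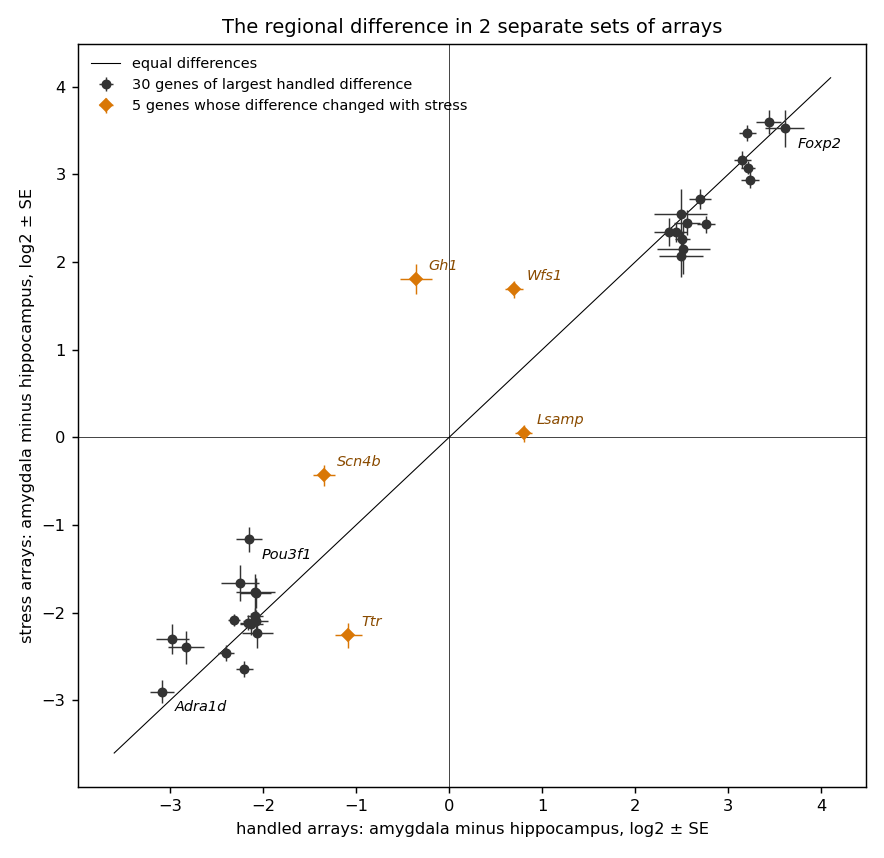
Regional difference (log2 of amygdala minus hippocampus, ± SE) in handled arrays (x axis) and stress arrays (y axis) for the 30 genes of largest handled difference (black) and the 5 genes whose difference changed with stress (orange); the line marks equal differences. Most black points lie near the line, and the orange ones, Gh1 farthest, lie away from it.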

How the data were processed

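Total RNA was read on 18 Affymetrix rat arrays. Each deposited file gives linear-scale intensities, with a single value for every probe set. From the values, the authors had scaled every array to 1 trimmed mean (150.04 to 150.05 after 2% was cut from each tail), and no further scaling was applied. How probe signals were summarised, and with which software, is not stated in the labels, and probe-level values, detection calls and scan dates were not analysed here. Because every array has the same trimmed mean, a shift common to most bright transcripts would be hidden.

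Of 31099 probe sets 57 were controls. Probe sets were named from the platform annotation, with symbols updated from a GRCr8 RefSeq table: 20832 had 1 symbol, 436 several and 9831 none, and the last pair were tested but not named. Values were analysed as log2(intensity + 16), an offset that shrinks the differences of dim genes. A filter at the 40th percentile of mean log2 level left 18625 of 31042 probe sets. The limma package (3.58.1, R 4.3.3) fitted 6 group means to the 18 arrays with a variance trend, 12 residual and 10.2 prior degrees of freedom, two-sided tests and Benjamini-Hochberg adjustment over all kept probe sets at 0.05. Contrasts were amygdala minus hippocampus in handled arrays, the same in stress arrays, and the difference between these. Errors beside log2 differences are SEs, and those beside intensities are SDs over 3 arrays. An exact permutation test of 3 against 3 arrays has a smallest p of 0.1 and was not used. The fit was tested on simulated data.

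Genes named in the text are the 15 of largest difference in each direction, among those called with no overlap between arrays, up to 5 per direction whose difference changed with stress, and members of 31 gene lists. The comparison and the lists were chosen with earlier results of these data known. Promoter sequences cover 250 bases before each RefSeq start, and the motifs TATAAA, TGACGTCA and CAGATG were searched as well and are in 13.1%, 1.70% and 13.7% of promoters. Alternatives covered the offset, the filter, scaling, the arrays in the fit, the variance model, array weights, a replicate block and leaving out each array.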

Additional observations from a re-analysis of the deposited data

Results flagged for a closer look

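The regional difference of 5 genes was larger or smaller in stress arrays than in handled arrays by the interaction test of limma. For growth hormone (Gh1) the change was 2.16 ± 0.24 (log2 ± SE, stress gap minus handled gap, adjusted p = 6.8e-05), and it passed in all 23 alternatives that kept the probe set. The change of Wfs1 was 0.99 ± 0.14 (adjusted p = 0.0014) and passed in all 24 alternatives. That of Scn4b was 0.91 ± 0.17 (adjusted p = 0.0498), but it did not pass in 18 of 24. Ttr changed by -1.17 ± 0.20 (adjusted p = 0.028) and did not pass in 12 of 24, and Lsamp by -0.76 ± 0.13 (adjusted p = 0.032) and did not pass in 13 of 24. All 3 handled and 3 stress arrays of each region entered each of these tests.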

How the results depend on the processing

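All counts of probe sets called in handled arrays, and in stress arrays, stayed within 1.5 times under every alternative run, from 4441 to 5394 and from 3736 to 5469 with all arrays of the groups kept. Leaving out each array in turn gave 4430 to 4697 handled calls, 718 to 767 probe sets at least 2-fold apart, 4253 to 4926 stress calls and 3 to 18 interaction calls. Probe sets at least 2-fold apart numbered 701, and 359 with an offset of 64, which damps differences by its construction. The 9 interaction calls became 3 with no filter, no variance trend or array weights, 4 with only the arrays compared or only the 12 amygdala and hippocampus arrays, 15 with median centring and 16 with the 60th percentile filter, and the cause was not tested. Centring on medians turned the split of handled calls from 2895 higher and 2394 lower to 2405 and 2781. The handled and stress comparisons fitted on their own 6 arrays each called 2776 and 2187 genes, 1670 the same way in both (60.2% and 76.4%).

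Of 210 named genes called, 204 kept the call in all 18 alternatives of the handled comparison that kept their probe set, all 30 of largest difference among them, and 6 lost it at least once. Uncalled genes near 0 changed sign: Grin2b was -0.0165 with median centring and from -0.0273 to 0.0606 without 1 array, Ntrk3 -0.0272 with median centring, -0.0305 with quantile normalization and from -0.0826 to 0.092, and Col1a1 from -0.37 to 0.0923. Counts of called list members stayed within 1.5 times in every alternative for 49 of 62 counts, and the striatal genes called higher fell from 12 to 7 with the 60th percentile filter, under which fewer were tested. Deviations of same-numbered handled amygdala and hippocampus arrays from their group means correlated between -0.03 and 0.02. This cannot decide whether the numbers pair the arrays, since array-to-array spread could hide a pairing and the labels do not explain the numbers. The main fit treated the arrays as unpaired. The replicate block called 5240 handled, 702 at least 2-fold, 5110 stress and 9 interaction probe sets. With 3 arrays a group, dim transcripts such as Crh limit what could be seen.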
